A study of Mus musculus with 9 samples.

Results

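The 10 genes described here encode the receptors of the epidermal growth factor (EGF) family, *Egfr*, *Erbb2*, *Erbb3* and *Erbb4*, and 6 of their ligands, *Areg*, *Ereg*, *Hbegf*, *Tgfa*, *Btc* and *Nrg1*. They were taken by name from a table of RNA-seq counts for 55228 genes, and 9 of the 10 passed the filter on low counts. The cells were HC11, a mouse mammary epithelial line that can be driven to make milk proteins, and the question was how transcript levels differ between parental cells and cells in which *Vangl2*, a planar cell polarity gene, was targeted with CRISPR/Cas9. There were 3 cultures of the parental line (*WT*) and 3 of each of 2 edited lines made with different guides (*KD1* and *KD2*). The sample labels name the edited lines as *Vangl2* knockouts 1 and 2. All 9 cultures, *WT* included, were grown undifferentiated in RPMI-1640 to which FBS (10%), insulin (5 µg/mL) and EGF (10 ng/mL) had been added, so a ligand of EGFR was present throughout. Each edited line is 1 line picked from the targeted clones, so an effect of the edit and a property of the clone cannot be told apart, and cells cloned without a *Vangl2* guide were not analysed here.

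ErbB receptors are transmembrane tyrosine kinases that act as pairs: a ligand opens the receptor, it pairs with itself or with another family member, and the paired kinases phosphorylate tail sites that recruit adaptors of the RAS-MAPK and PI3K-AKT pathways. ERBB2 has no known ligand of its own and ERBB3 has a weak kinase, so both signal mainly with a partner. The ligands are made as membrane-bound precursors and are shed by proteases such as ADAM17. In the mammary gland, amphiregulin acts on EGFR during the growth of ducts at puberty, neuregulin and ERBB4 act in the lobules of pregnancy, and EGF is used to keep HC11 cells competent for later differentiation.

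Between 19231428 and 28360592 reads were counted per culture. Levels are given in CPM, which scales counts by the library size and its TMM factor, as single values or as mean ± SD over the 3 cultures of a line, and a floor of 3 counts, which covers counting error only because the reads carried no molecular identifiers, was 0.0999 to 0.154 CPM. *WT* replicate 1 and *KD2* replicate 3 stood apart from the others of their line, with chi-square values per degree of freedom of 10.7 to 22.1 against them, where the other pairs gave 1.37 to 3.38. Nothing in the labels says how separately the cultures of a line were grown, so the p-values measure only the spread between these samples. The targeted gene, *Vangl2*, was at 3.38, 3.96 and 4.20 CPM in the *WT* cultures, 2.77, 1.89 and 2.78 CPM in those of *KD1* and 3.64, 3.93 and 4.43 CPM in those of *KD2*. Against *WT* this was a log2 change of -0.63 for *KD1* (adjusted p = 0.0058) and of 0.05 for *KD2* (adjusted p = 0.81), so the transcript fell in *KD1* and did not differ detectably in *KD2*. A transcript level does not report the edit itself, and the edited alleles were not analysed here. The authors reported from immunoblots that VANGL2 protein was nearly absent in *KD1* and strongly reduced in *KD2*. Of the 9 epithelial markers, *Krt19* alone was at or under the floor. Over the cultures of a line, their summed level ranged from 5068 to 5658 CPM for *WT*, from 5860 to 6015 CPM for *KD1* and from 3047 to 3736 CPM for *KD2*.

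A gene is called here at an adjusted p under 0.05 with an absolute log2 fold change above 1, and described as higher or lower, risen or fallen at an adjusted p under 0.05. Each adjusted p comes from the quasi-likelihood test of edgeR, adjusted by the Benjamini-Hochberg method over 15253 genes. In *KD1* against *WT*, 3 of the 9 tested members were called higher (*Hbegf*, *Tgfa* and *Nrg1*), where 9.34% of all genes tested were, and 0 were called lower, where 7.49% were. With the adjusted p alone, 5 members were higher and 1 lower, beside 26.9% and 30.0% of all genes. In *KD2* against *WT*, 0 members were called higher (14.5% of all genes) and 4 were called lower (*Egfr*, *Areg*, *Ereg* and *Nrg1*; 6.71% of all genes), and with the adjusted p alone 1 was higher and 6 were lower (34.0% and 33.3%). Set directly against each other, 6 members were called lower in *KD2* than in *KD1* (8.58% of all genes) and 0 higher (14.7%). The adjusted p alone put 8 of the 9 lower in *KD2* than in *KD1* and 0 higher, beside 33.0% and 34.8% of all genes. The median log2 fold change over the 9 members was 0.57 in *KD1*, where that of all genes was -0.03, and -0.51 in *KD2*, where that of all genes was 0.01. Both comparisons used the same 3 *WT* cultures. Cultures of 2 lines without overlap, as given below for single genes, were common among all genes tested. *KD1* lay wholly above *WT* for 32.4% and below for 36.4%, and *KD2* above *WT* for 34.6% and below for 33.4%. Between the edited lines, *KD2* lay wholly above *KD1* for 36.7% and below for 35.0%. The counts of members called were identical under all 16 alternative settings, which included DESeq2 and leaving out each culture in turn.

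**Figure D1:**
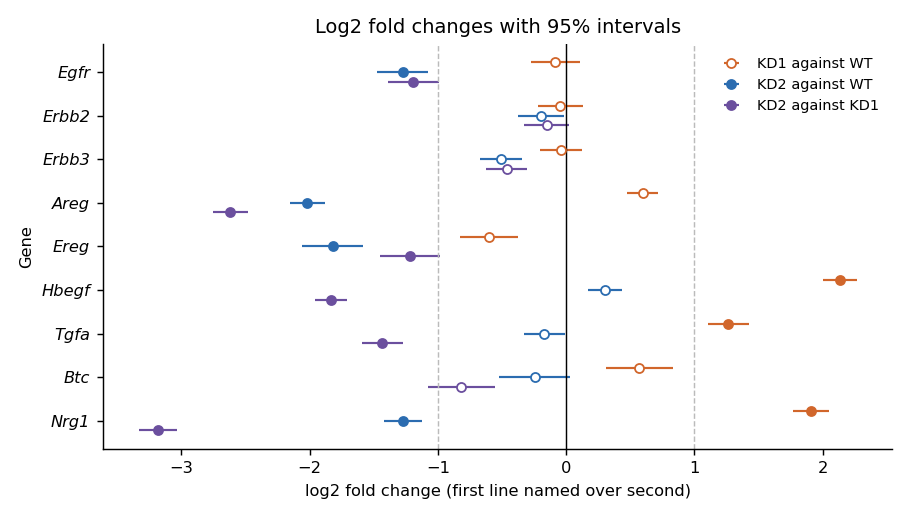
Log2 fold change (horizontal axis) of the 9 tested ErbB receptor and ligand genes in the 3 comparisons between lines, from edgeR, with 95% intervals as bars. Filled points are called (adjusted p under 0.05 and beyond the dashed lines at -1 and 1). *Hbegf*, *Tgfa* and *Nrg1* lie beyond 1 in *KD1* against *WT*, while *Egfr*, *Areg*, *Ereg* and *Nrg1* lie beyond -1 in *KD2* against *WT*.

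Among the receptors, *Egfr* was the one called against *WT*, in *KD2*, where it was also called against *KD1*. *Egfr* encodes the receptor for EGF, amphiregulin, TGF-alpha and most of the other ligands measured here. Its levels in the 3 cultures of *WT* were 89.4, 93.6 and 87.3 CPM, beside 84.3, 82.7 and 88.0 CPM for *KD1* and 39.6, 41.4 and 30.2 CPM for *KD2*. All *KD2* cultures lay below all others, with replicate 3 the lowest, while the *WT* and *KD1* ranges overlapped. *Egfr* was 2.42-fold lower in *KD2* than in *WT*, a log2 fold change of -1.28 (SE 0.0934, adjusted p = 4e-08), and it was -1.13 without *KD2* replicate 3. The difference between *KD1* and *WT* was -0.08 (SE 0.0897, adjusted p = 0.447), with a 95% interval of -0.28 to 0.11. Set against each other, *KD2* lay 2.28-fold below *KD1*, a log2 difference of -1.19 (SE 0.0930, adjusted p = 5.8e-08). In bulk RNA, fewer cells that express a gene and less of its RNA per cell cannot be told apart. The summed epithelial markers were also lowest in *KD2*, and most of that difference lay in the abundant basal keratins *Krt5* (2117 CPM in *WT*, 1088 CPM in *KD2*) and *Krt14* (1527 and 819 CPM). *Epcam*, *Cdh1* and *Trp63* also had their lowest mean in *KD2*. The luminal keratin *Krt8* was highest there, at 268 CPM beside 158 CPM in *WT*, while *Krt18* (125 and 136 CPM) and *Krt7* (70.8 and 73.0 CPM) were close to *WT*. The part of these markers in the result was not tested.

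*Egfr* lies on the plus strand of chromosome 11 (chr11:16752203-16918158, GRCm38). The 300 bases around its start, 250 before and 50 after as RefSeq gives them (chr11:16751953-16752252, GRCm38.p6), are shown because it is the receptor called in *KD2*. They were searched on both strands for 4 short motifs: the AP-1 motif TGANTCA, the cyclic AMP response element (CRE) TGACGTCA, the STAT motif TTCNNNGAA and the TATA box TATAAA. None of these strings occurs in the window of *Egfr*, which says only that these letters are not in it.
Egfr: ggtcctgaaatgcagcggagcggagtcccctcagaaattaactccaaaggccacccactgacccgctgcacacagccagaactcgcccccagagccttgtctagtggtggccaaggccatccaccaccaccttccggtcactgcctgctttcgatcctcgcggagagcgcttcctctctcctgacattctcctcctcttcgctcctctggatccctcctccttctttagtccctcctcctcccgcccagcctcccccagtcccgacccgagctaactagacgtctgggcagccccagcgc

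*Erbb2* and *Erbb3* differed less. *Erbb2* encodes the receptor without a ligand, the preferred partner in the family. Per culture, *WT* gave 107, 127 and 122 CPM, *KD1* gave 117, 115 and 114 CPM and *KD2* gave 98.6, 95.5 and 117 CPM. The ranges of all 3 lines overlapped. For *KD2* over *WT* the log2 change was -0.20 (SE 0.0818, adjusted p = 0.047), a narrow pass that held in 4 of 16 alternative settings, over which it ranged from -0.27 to -0.09. In *KD1* it was -0.05 (SE 0.0815, adjusted p = 0.654), with an interval of -0.22 to 0.13, and between *KD2* and *KD1* it was -0.15 (SE 0.0816, adjusted p = 0.119). *Erbb2* shares 9 exon bases with *Mien1* on the opposite strand, and whether the counting used strand is not given in the sources used here.

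*Erbb3* encodes the receptor for neuregulins that signals through a partner. *Erbb3* stood at 63.1, 78.8 and 67.2 CPM in the 3 *WT* cultures, at 68.6, 67.2 and 67.7 CPM in those of *KD1* and at 47.9, 48.4 and 51.2 CPM in those of *KD2*. The *KD2* values were below every value of the other lines, and *WT* replicate 2 stood highest. *Erbb3* was 1.42-fold lower in *KD2* than in *WT*, a log2 fold change of -0.51 (SE 0.0762, adjusted p = 4.6e-05), which is short of the 2-fold limit for a call. No change was detected in *KD1*, at -0.04 (SE 0.0750, adjusted p = 0.665) with an interval of -0.20 to 0.12. The difference between *KD2* and *KD1* was -0.47 (SE 0.0758, adjusted p = 8.8e-05).

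*Erbb4*, the neuregulin receptor linked to lactation, had 0 counts in 8 cultures and 1 count in *KD2* replicate 1. All 9 libraries were under the floor of 3 counts, so *Erbb4* was not detectable at this depth in any line and was not tested. The receptors measured were therefore *Egfr*, *Erbb2* and *Erbb3*.

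**Figure D2:**
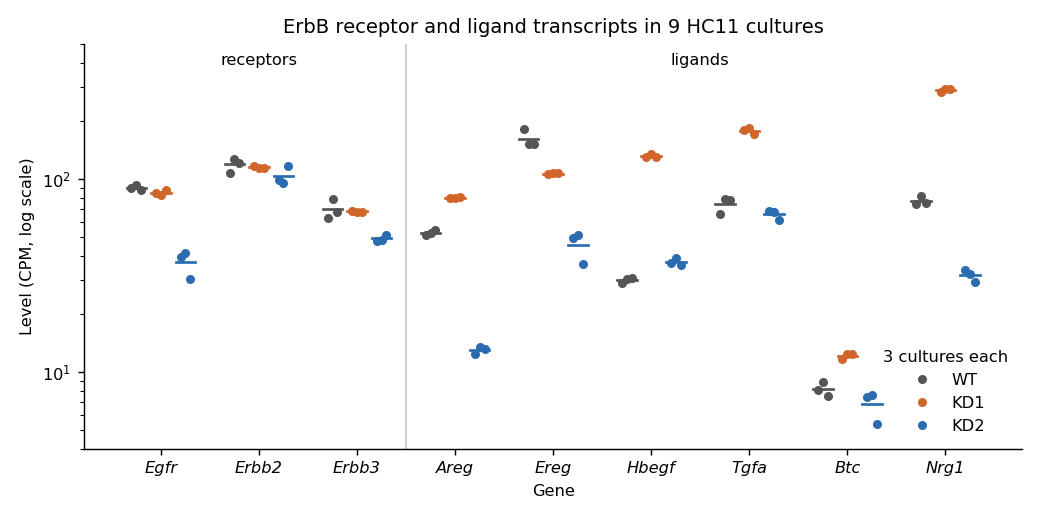
Levels in CPM (vertical axis, log scale) of 3 ErbB receptor and 6 ligand genes in each of 9 cultures, with 1 point per culture and a bar at the mean of each line. *Erbb4*, at 0 to 1 counts, is not drawn. The *KD2* points are lowest for *Egfr*, *Erbb3*, *Areg*, *Ereg* and *Nrg1*, and the *KD1* points are highest for *Areg*, *Hbegf*, *Tgfa*, *Btc* and *Nrg1*.

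The 6 ligand genes all differed between *KD1* and *WT*, 5 being higher and *Ereg* lower. *Areg* encodes amphiregulin, an EGFR ligand and the one most tied to ductal growth. Its levels in the 3 cultures of *WT* were 51.5, 52.5 and 54.3 CPM, beside 79.8, 79.2 and 80.6 CPM for *KD1* and 12.4, 13.5 and 13.2 CPM for *KD2*. The 3 lines did not overlap, with *KD1* highest and *KD2* lowest, and replicates of a line lay close together. *Areg* rose 1.51-fold in *KD1*, by a log2 value of 0.60 (SE 0.0559, adjusted p = 5.8e-07). In *KD2* it was 4.05-fold lower than in *WT*, a log2 fold change of -2.02 (SE 0.0631, adjusted p = 1.3e-11). Between the edited lines the difference was 6.13-fold, with a log2 value of -2.62 (SE 0.0625, adjusted p = 1.9e-13).

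The start of *Areg* (chr5:91139349-91139648, plus strand, GRCm38.p6, RefSeq) is shown because its transcript moved in opposite directions in the edited lines. Capitals mark a CRE that begins 61 bases before the start, and a TATA box that begins 31 bases before it. The CRE string occurs on either strand in 1.79% of 32851 promoter windows of the same length, the TATA string in 13.6%, the AP-1 string in 7.81% and the STAT string in 8.3%. The matches do not overlap each other and are a description of the letters, not of a bound site. Of the 6 members with a window in this table (*Egfr*, *Erbb2*, *Erbb4*, *Areg*, *Tgfa* and *Btc*), *Areg* was the 1 with a match to any of the 4 motifs.
Areg: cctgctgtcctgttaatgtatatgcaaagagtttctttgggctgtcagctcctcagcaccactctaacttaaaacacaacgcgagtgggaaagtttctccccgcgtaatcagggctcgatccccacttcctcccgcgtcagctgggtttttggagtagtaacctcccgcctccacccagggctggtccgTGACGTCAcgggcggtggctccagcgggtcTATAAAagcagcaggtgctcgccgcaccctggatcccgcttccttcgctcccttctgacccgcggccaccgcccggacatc

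*Ereg* encodes epiregulin, which binds EGFR and ERBB4 with low affinity. Per culture, *WT* gave 181, 152 and 152 CPM, *KD1* gave 106, 107 and 107 CPM and *KD2* gave 49.4, 51.4 and 36.2 CPM. *WT* was highest, *KD1* between and *KD2* lowest, without overlap, and *WT* replicate 1 and *KD2* replicate 3 were the outermost values. *Ereg* fell in both lines, by 1.52-fold in *KD1*, a log2 fold change of -0.60 (SE 0.106, adjusted p = 0.00025), and by 3.53-fold in *KD2*, a log2 fold change of -1.82 (SE 0.111, adjusted p = 6.3e-09). Without *KD2* replicate 3 the *KD2* value was -1.65, and without *WT* replicate 1 it was -1.73. *KD2* was also lower than *KD1*, by -1.22 (SE 0.110, adjusted p = 2.5e-07) on the log2 scale. *Ereg* shares 141 exon bases with *Gm19610* on the opposite strand, and how reads in those bases were assigned is not given in the sources used here. *Gm19610* itself was at 1.01 CPM in *WT*.

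*Hbegf* encodes heparin-binding EGF-like growth factor, a ligand of EGFR and ERBB4. *Hbegf* stood at 28.9, 30.5 and 30.6 CPM in the 3 *WT* cultures, at 129.8, 135 and 130.2 CPM in those of *KD1* and at 36.5, 38.8 and 35.7 CPM in those of *KD2*. *KD1* stood far above the other lines, and *KD2* lay above *WT* without overlap. *Hbegf* rose 4.39-fold in *KD1*, a log2 fold change of 2.14 (SE 0.0601, adjusted p = 1.7e-12). Its rise in *KD2* was 1.24-fold, a log2 value of 0.30 (SE 0.0611, adjusted p = 0.00056), so *Hbegf* was the 1 member higher than *WT* in both lines. The difference between *KD2* and *KD1* was -1.83 (SE 0.0586, adjusted p = 4e-12).

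*Tgfa* encodes TGF-alpha, a ligand of EGFR. Its levels in the 3 cultures of *WT* were 66.0, 79.0 and 77.4 CPM, beside 179, 184 and 171 CPM for *KD1* and 68.4, 67.4 and 61.5 CPM for *KD2*. *KD1* was above all other cultures, while *KD2* and *WT* overlapped, *WT* replicate 1 being the lowest of its line. *Tgfa* rose 2.40-fold in *KD1*, a log2 fold change of 1.26 (SE 0.0739, adjusted p = 3.9e-09). In *KD2* the value was -0.17 (SE 0.0745, adjusted p = 0.056), which missed the threshold, and without *WT* replicate 1 it was -0.25 (adjusted p = 0.00584). Relative to *KD1*, *KD2* was 2.70-fold lower, at -1.44 (SE 0.0741, adjusted p = 7.4e-10). *Tgfa* shares 118 exon bases with *Gm43917* on the opposite strand. Its start (chr6:86194972-86195271, plus strand, GRCm38.p6, RefSeq), shown because *Tgfa* is the 1 of the 3 ligands called higher in *KD1* that has a window in this table, holds none of the 4 motifs.
Tgfa: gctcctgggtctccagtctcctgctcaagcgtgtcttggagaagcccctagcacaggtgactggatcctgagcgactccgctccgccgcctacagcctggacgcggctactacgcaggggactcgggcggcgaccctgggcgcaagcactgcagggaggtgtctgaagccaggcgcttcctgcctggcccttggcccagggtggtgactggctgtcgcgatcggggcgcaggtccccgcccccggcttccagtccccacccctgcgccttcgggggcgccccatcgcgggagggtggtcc

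*Btc* encodes betacellulin, a ligand of EGFR and ERBB4, and had the lowest level of the ligands. Per culture, *WT* gave 8.04, 8.84 and 7.52 CPM, *KD1* gave 11.7, 12.4 and 12.3 CPM and *KD2* gave 7.44, 7.62 and 5.36 CPM. *KD1* was above the others, and *WT* and *KD2* overlapped, with *KD2* replicate 3 below the rest. *Btc* rose 1.49-fold in *KD1*, a log2 fold change of 0.57 (SE 0.121, adjusted p = 0.0011). No change was detected in *KD2*, at -0.25 (SE 0.128, adjusted p = 0.103) with an interval of -0.52 to 0.03, and the value was -0.09 without *KD2* replicate 3. *KD2* was 1.76-fold lower than *KD1*, a log2 difference of -0.82 (SE 0.121, adjusted p = 3.6e-05).

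*Nrg1* encodes neuregulin 1, the ligand of ERBB3 and ERBB4, and differed most among the lines. *Nrg1* stood at 73.9, 81.2 and 74.9 CPM in the 3 *WT* cultures, at 283, 291 and 292 CPM in those of *KD1* and at 33.7, 32.4 and 29.1 CPM in those of *KD2*. *KD1* was highest, *WT* between and *KD2* lowest, without overlap. In *KD1* it rose 3.76-fold, a log2 fold change of 1.91 (SE 0.0652, adjusted p = 1.2e-11). In *KD2* it was 2.42-fold lower than in *WT*, at -1.27 (SE 0.0676, adjusted p = 1.8e-09). The edited lines differed 9.09-fold, by -3.18 (SE 0.0695, adjusted p = 8.4e-14) on the log2 scale. *Nrg1* thus moved in opposite directions in the 2 lines, as *Areg* did, while *Ereg* fell in both. *Nrg1* has many isoforms, which gene counts do not separate, and it shares 482 exon bases with *Gm26578* on the opposite strand.

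To compare levels between genes, CPM was divided by the length of each gene's merged exons in kilobases. On this scale *Areg* (43.4 ± 1.19 CPM per kb, SD, n = 3) and *Ereg* (39.2 ± 4.09) were the highest members in *WT* and their ranges overlapped. *Erbb2* followed at 22.8 ± 1.96 CPM per kb. Next came *Erbb3* (11.6 ± 1.36) with *Tgfa* (11.4 ± 1.10), and then *Egfr* (7.95 ± 0.282) with *Nrg1* (7.41 ± 0.383), the members of each pair overlapping, and *Hbegf* and *Btc* were lowest. With the longest transcript as gene length, this order changed below *Erbb2*: *Nrg1* (13.6 to 15.0 CPM per kb over the *WT* cultures) then lay above *Erbb3* (10.5 to 13.1), and *Hbegf* (10.0 to 10.6) above *Egfr* (8.55 to 9.17). In *KD1*, *Areg* was alone at the top at 65.8 ± 0.572 CPM per kb, and *Nrg1*, *Tgfa* and *Hbegf*, at 27.9, 27.4 and 27.3, had overlapping ranges between neighbours, with *Ereg* at 25.8 ± 0.140. That closeness came from the length used, since with the longest transcript *Nrg1* lay at 52.3 to 53.8 CPM per kb, *Hbegf* at 44.9 to 46.8 and *Tgfa* at 37.9 to 40.6, without overlap and all above *Ereg* at 25.7 to 25.9. In *KD2*, *Erbb2* ranked first at 19.9 ± 2.26 CPM per kb, above *Ereg* (11.1 ± 2.01), *Areg* (10.7 ± 0.476) and *Tgfa* (10.1 ± 0.573), whose ranges overlapped from each to the next. With the longest transcript *Erbb2* was still first in *KD2* (19.1 to 23.4 CPM per kb), and *Tgfa* came next (13.6 to 15.1). Thus a receptor gene led in *KD2*, where ligand genes led in the other lines.

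Summed over the 6 ligands, the level was 109 ± 1.65 CPM per kb in *WT*, 177 ± 1.32 in *KD1* and 44.1 ± 3.28 in *KD2* (SD, n = 3), with no overlap between lines. The receptors summed to 42.3 ± 3.41, 40.9 ± 0.402 and 31.4 ± 2.01 CPM per kb, with *KD2* below and the other lines overlapping. These sums and the shares below are descriptions without a test. *Areg* made up 39.7 ± 1.55% of the ligand sum in *WT*, 37.2 ± 0.539% in *KD1* and 24.4 ± 2.20% in *KD2*. *Ereg* had 35.8 ± 3.17%, 14.6 ± 0.0633% and 24.9 ± 2.85%. The ligand mix therefore had less *Ereg* in both edited lines, while the share of *Hbegf* was 5.67 ± 0.261% in *WT*, 15.4 ± 0.235% in *KD1* and 17.4 ± 0.773% in *KD2*. *Nrg1* took 6.77 ± 0.428% in *WT*, 15.8 ± 0.188% in *KD1* and 6.95 ± 0.266% in *KD2*, and *Tgfa* 10.4 ± 1.15%, 15.5 ± 0.489% and 23.0 ± 0.681%. Among the receptors, *Egfr* had 18.9 ± 1.21% in *WT*, 18.4 ± 0.550% in *KD1* and 10.5 ± 2.29% in *KD2*, while *Erbb2* had 53.8 ± 1.26%, 54.1 ± 0.491% and 63.4 ± 3.05%. With the longest transcript as the length of each gene, the share of *Nrg1* in the ligand sum was 11.3% in *WT*, 22.9% in *KD1* and 10.3% in *KD2*, so the shares depend on the transcript assumed, and that of *KD2* then lay below that of *WT*. The lengths of *Areg* and *Ereg* are the same either way, while those of *Hbegf*, *Tgfa*, *Btc* and *Nrg1* become shorter. The ligand sums are then larger and the shares of *Areg* and *Ereg* smaller in every line.

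**Figure D3:**
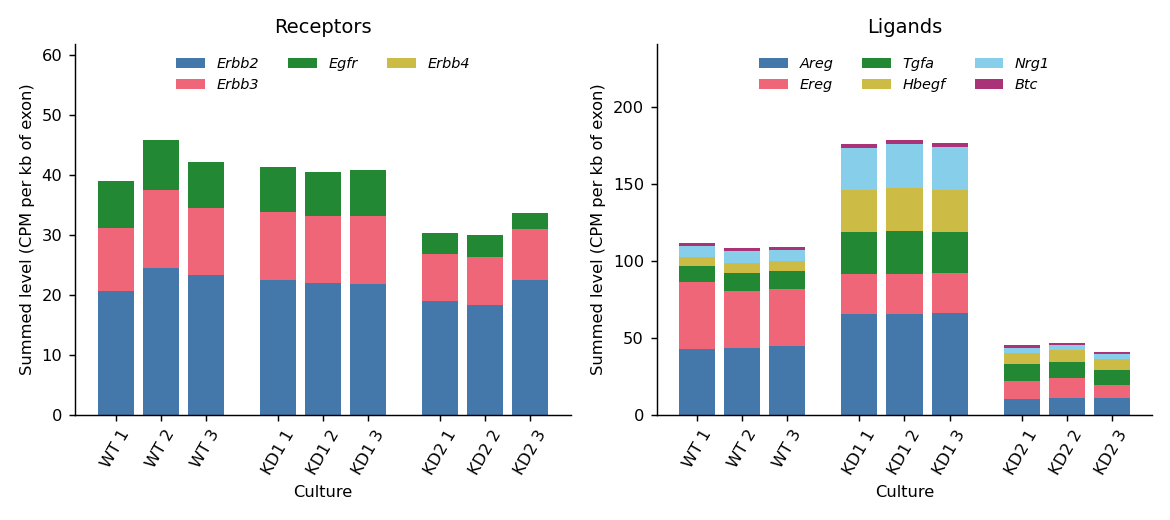
Summed levels in CPM per kilobase of merged exon (vertical axes, from 0) of the 4 receptor genes (left) and the 6 ligand genes (right), stacked by gene, with 1 bar per culture. The ligand sum averages 109.4 in *WT*, 176.8 in *KD1* and 44.1 in *KD2*, and *Erbb4* is too low to be seen.

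The genes whose profile over the 9 cultures was nearest to that of *Egfr*, the receptor with the widest range, were *Bdp1*, *Mid2* and *Kantr*. Their Euclidean distances between log2 CPM profiles centred on the *WT* mean were 0.189, 0.234 and 0.283, where the median over all genes tested was 2.57. *Mid2*, for example, gave 73.6, 79.9 and 77.5 CPM in the *WT* cultures, 75.5, 80.5 and 76.1 CPM for *KD1* and 36.0, 35.7 and 26.2 CPM for *KD2*. Like *Egfr*, *Mid2* was low in the *KD2* cultures and lowest in replicate 3. Nearest to *Nrg1*, the ligand with the widest range, were *Fam167a*, *Tnfaip2* and *Urah*, at distances of 0.422, 0.457 and 0.464 beside a median of 4.22. *Urah* had 38.9 ± 3.28, 151 ± 5.35 and 18.1 ± 1.40 CPM in *WT*, *KD1* and *KD2*, respectively (SD, n = 3). The distances are a description of likeness over these cultures.

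The ligand genes *Ereg* (chr5:91074622-91093646), *Areg* (chr5:91139599-91148432) and *Btc* (chr5:91357261-91402994) lie beside each other on chromosome 5 of GRCm38, together with *Epgn*, which encodes the ligand epigen. Within 500 kb of *Areg*, a window chosen after values were seen, 13 genes were tested. The 13 did not all move the same way in either line. In *KD1*, 5 of the 13 were called higher and 0 lower (9.34% and 7.49% of all genes), and the 5 were the chemokine genes *Cxcl5*, *Ppbp*, *Cxcl3*, *Cxcl1* and *Cxcl2*, with log2 fold changes of 4.40 to 6.77. *Ppbp*, *Cxcl3* and *Cxcl2* started from 0.202, 0.473 and 0.297 CPM in *WT*, close to the floor. *Cxcl1*, which encodes a neutrophil attractant, was at 32.9 ± 5.22, 694 ± 19.9 and 49.7 ± 4.79 CPM in *WT*, *KD1* and *KD2*, respectively (SD, n = 3). *Mthfd2l*, between the chemokine and the ligand genes, stood at a log2 fold change of -0.10 in *KD1* (adjusted p = 0.264), and *Epgn* at 0.08 (adjusted p = 0.668). In *KD2*, 4 genes of the window were called higher and 3 lower (14.5% and 6.71% of all genes). Called higher were *Parm1* and the chemokine genes *Cxcl5*, *Cxcl3* and *Cxcl2*, the chemokine genes at 1.46, 3.11 and 1.16. *Cxcl1* also rose in *KD2*, at 0.60 (adjusted p = 0.00011), while *Ppbp* did not differ detectably. *Areg* and *Ereg* were among those called lower. Their neighbours *Mthfd2l* and *Epgn* were lower there too, at -0.60 (adjusted p = 1.2e-05) and -0.44 (adjusted p = 0.018). Every tested gene from *Mthfd2l* to *Btc* had a negative value in *KD2*, though *Gm19610* (-0.32) and *Btc* (-0.25) did not pass the threshold. *Parm1*, beyond *Btc*, rose in *KD2*, from 0.241 ± 0.0878 to 2.72 ± 0.257 CPM. The median log2 fold change over the 1042 genes tested on chromosome 5 was 0.01 in *KD1* and -0.20 in *KD2*, where all genes tested had -0.03 and 0.01, and the part of this shift in the *KD2* values of *Areg* and *Ereg*, -2.02 and -1.82, was not tested. Over both lines, the medians on the chromosomes of the other members ran from -0.27 (chromosome 8, *Nrg1*, in *KD1*, where *Nrg1* was higher) to 0.23 (chromosomes 6 and 18, *Tgfa* and *Hbegf*, in *KD2*).

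**Figure D4:**
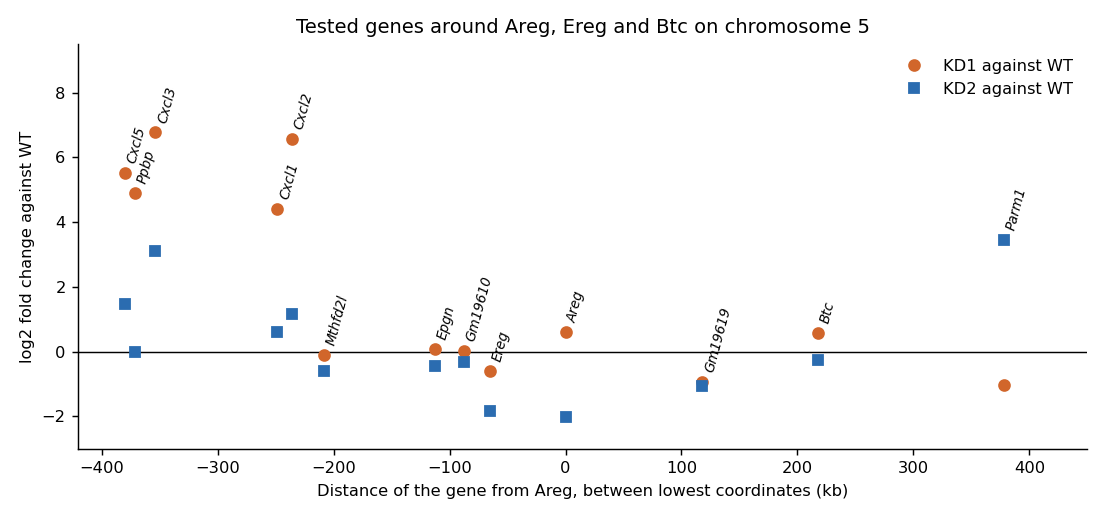
Log2 fold change against *WT* (vertical axis) of the 13 tested genes within 500 kb of *Areg*, by distance between lowest coordinates (horizontal axis, kb), with circles for *KD1* and squares for *KD2*. The 5 chemokine genes to the left lie at 4.40 to 6.77 in *KD1*, and *Ereg* and *Areg* are lowest in *KD2*, at -1.82 and -2.02.

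The other genes of the pathway were described by lists. Of 5 further ErbB ligands, 4 were tested and all were low. *Egf* itself was at 1.60 ± 0.722, 1.05 ± 0.239 and 2.73 ± 0.221 CPM in *WT*, *KD1* and *KD2*, respectively. *Egf* was 2.58-fold higher in *KD2* than in *KD1*, at 1.37 (SE 0.269, adjusted p = 0.00045). Against *WT* it was also higher in *KD2*, at 0.81 (SE 0.261, adjusted p = 0.014). That result was lost without *WT* replicate 2 (0.53, adjusted p = 0.0642), and without *WT* replicate 1 the value was 1.19. *Nrg2*, a neuregulin, rose in *KD2* from 1.15 ± 0.346 to 4.45 ± 0.684 CPM, a log2 fold change of 1.96 (SE 0.214, adjusted p = 2.2e-06). It was also higher in *KD1*, at 0.92 (SE 0.232, adjusted p = 0.0038), and higher in *KD2* than in *KD1*, at 1.04 (SE 0.187, adjusted p = 0.00021), a call lost in 3 of 16 alternative settings (0.93 without *KD2* replicate 3 and 0.95 without *KD1* replicate 2). The median over the 4 genes was 0.02 in *KD1* and 0.49 in *KD2*.

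Of 14 genes for the proteases that shed ligands and their regulators, 13 were tested. In *KD1*, 3 were called higher (23.1%, beside 9.34% of all genes) and 1 lower (7.69%, beside 7.49%). In *KD2*, 0 were called, and by the adjusted p alone 5 were higher (38.5%) and 4 lower (30.8%), near the 34.0% and 33.3% of all genes. The medians were 0.41 in *KD1* and 0.16 in *KD2*. *Adam8* rose 5.13-fold in *KD1*, from 49.0 ± 2.36 to 251 ± 4.39 CPM, and was at 39.3 ± 3.28 CPM in *KD2*. *Adam19*, a metalloprotease that can cleave neuregulin, had 1, 2 and 4 counts in *WT*, 69, 103 and 81 counts in *KD1* and 2, 7 and 5 counts in *KD2*, and was called in *KD1* (adjusted p = 1e-07). The third gene called higher was *Rhbdl2*, named here after its values were seen. *Timp3*, the inhibitor of ADAM17, was 8.85-fold lower in *KD1*, with 1173 ± 78.4, 133 ± 2.45 and 738 ± 36.9 CPM in *WT*, *KD1* and *KD2*, respectively. *Adam17*, the main sheddase of *Areg*, *Hbegf* and *Tgfa* products, rose slightly in both lines, by 0.23 (SE 0.0564, adjusted p = 0.0028) in *KD1* and 0.36 (SE 0.0564, adjusted p = 6.3e-05) in *KD2* on the log2 scale. *Rhbdf2*, which encodes the carrier of ADAM17 to the cell surface, rose in *KD1*, at 0.50 (SE 0.0727, adjusted p = 4.2e-05). It was lower in *KD2*, at -0.23 (SE 0.0730, adjusted p = 0.013), where the cultures overlapped those of *WT* and the result was lost in 5 of 16 alternative settings.

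Of 30 adaptor and kinase genes downstream of the receptors, 0 were called against *WT* in either line, by edgeR. By the adjusted p alone, *KD1* had 8 higher (26.7%) and 10 lower (33.3%), near the 26.9% and 30.0% of all genes. *KD2* had 4 higher (13.3%, beside 34.0%) and 15 lower (beside 33.3%), and the medians were -0.01 and -0.18. Between the lines, *Grb7*, an adaptor gene, was lower in *KD2* than in *KD1* at -1.32 (SE 0.0852, adjusted p = 7.7e-09), as was *Hras* at -1.17 (SE 0.0939, adjusted p = 8.1e-08). *Pik3r1*, the regulatory subunit of PI3K, was higher, at 1.00 (SE 0.0686, adjusted p = 1.5e-08), which is at the limit for a call and fell short of it in 11 of 16 alternative settings (0.961 to 0.998).

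Of 28 genes listed for restraint of the receptors or their signal, or for receptor turnover, 3 were called higher in *KD1*. The same 3 were called higher in *KD2*, *Errfi1*, *Lrig1* and *Spred3*. These 10.7% of the list were near the 9.34% of all genes in *KD1* and below the 14.5% in *KD2*, so the count says nothing particular of the list. *Lrig1*, whose product promotes breakdown of ErbB receptors, had 38.3, 35.8 and 35.0 CPM in the *WT* cultures, beside 215, 219.5 and 215 CPM for *KD1* and 249, 243 and 272 CPM for *KD2*. Both edited lines were far above *WT*, with log2 fold changes of 2.57 (SE 0.0644, adjusted p = 5.4e-13) in *KD1* and 2.81 (SE 0.0648, adjusted p = 8.4e-13) in *KD2*. *Errfi1*, which encodes a kinase inhibitor of EGFR, rose in both, with 84.9 ± 10.9, 258 ± 6.02 and 215 ± 6.51 CPM in *WT*, *KD1* and *KD2*, respectively. *Spred3*, an inhibitor of RAS-MAPK signalling, rose 5.20-fold in *KD1* and 3.73-fold in *KD2*. Those called lower were 2 in *KD1*, *Lrig3* and *Spry1* (7.14%, beside 7.49% of all genes), and 6 in *KD2* (21.4%, beside 6.71%). The 6 were *Lrig3*, *Spry1*, *Cblb*, *Cblc*, *Socs4* and *Rasa1*. *Lrig3*, of the same family as *Lrig1*, was at -1.131 in *KD1* and -1.675 in *KD2*. *Socs4* and *Rasa1* were at -1.121 and -1.463 in *KD2*. *Lrig3*, *Socs4* and *Rasa1* are named here after their values were seen. *Spry1*, an inhibitor of receptor tyrosine kinase signalling, was below *WT* by 3.53-fold in *KD1* and by 2.19-fold in *KD2*. *Cblb* and *Cblc*, for ubiquitin ligases that act on EGFR, went opposite ways, being higher in *KD1* at 0.65 (SE 0.0624, adjusted p = 7.6e-07) and 0.55 (SE 0.0843, adjusted p = 7.3e-05), and called lower in *KD2* at -1.02 (SE 0.0645, adjusted p = 1e-08) and -1.002 (SE 0.0938, adjusted p = 4.7e-07), both just past the limit of 1. The *KD2* call was lost in 5 of 16 alternative settings for *Cblb*, among them leaving out *KD2* replicate 3, *WT* replicate 2 or *WT* replicate 3 (-0.94, -0.98 and -0.99), and in 9 of 16 for *Cblc*, DESeq2 included, with values of -0.999 to -0.892.

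*Sh3kbp1*, whose product acts with CBL in endocytosis of EGFR, showed the same split, at 157 ± 12.9, 308 ± 4.74 and 85.0 ± 7.35 CPM in *WT*, *KD1* and *KD2*, respectively. Its log2 fold change was 0.97 (SE 0.0732, adjusted p = 6.4e-08) in *KD1* and -0.89 (SE 0.0744, adjusted p = 1.6e-07) in *KD2*. The medians over the 28 genes were -0.06 in *KD1* and -0.15 in *KD2*. *Dusp6*, a phosphatase gene induced by ERK, also parted the lines, at 192 ± 36.7, 322 ± 13.4 and 113 ± 9.87 CPM in *WT*, *KD1* and *KD2*, respectively. *Spry2* was lower in *KD2*, at -0.82 (SE 0.102, adjusted p = 7.7e-06), and *Spry4* was near 1.24 CPM in *WT* and higher in *KD2*, at 0.61 (SE 0.199, adjusted p = 0.015), a result lost without *WT* replicate 1 (0.45, adjusted p = 0.0539).

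Of 20 genes that respond to MAPK signalling, *KD1* had 7 called higher (35.0%, beside 9.34% of all genes) and 2 called lower (10.0%, beside 7.49%). *KD2* had 0 called higher, where 14.5% of all genes were, and 2 called lower (10.0%, beside 6.71%). The medians were 0.26 and -0.16. *Ier3*, a gene that responds early to growth factors and was called in *KD1*, was at 62.6 ± 11.2, 332 ± 11.4 and 67.3 ± 2.09 CPM in *WT*, *KD1* and *KD2*, respectively. *Lif*, which encodes a cytokine, rose 10.3-fold in *KD1*, at 3.37 (SE 0.0819, adjusted p = 4.2e-13), and was at -0.14 (SE 0.0781, adjusted p = 0.118) in *KD2*, where it passed without *KD2* replicate 2 (-0.22, adjusted p = 0.0206). *Egr1*, an immediate early transcription factor gene, was called higher in *KD1*, at 1.14 (SE 0.176, adjusted p = 8.3e-05), with 41.1, 73.3 and 71.5 CPM in *WT*, replicate 1 being the lowest. Without *WT* replicate 1 the value was 0.92 (adjusted p = 7.25e-05), short of the limit for a call. *Egr1* was also higher in *KD2*, at 0.68 (SE 0.176, adjusted p = 0.0038). *Egr2* and *Egr3*, of the same family, were those called lower in *KD1*, *Egr2* from 2.68 ± 0.768 to 0.449 ± 0.135 CPM. *Fos* missed the threshold in *KD1*, at 0.18 (SE 0.0971, adjusted p = 0.141), but passed it with only the 6 cultures compared (0.22, adjusted p = 0.00651) and without *KD2* replicate 3 (0.20, adjusted p = 0.0150). It rose in *KD2*, at 0.38 (SE 0.0969, adjusted p = 0.0031). Those called lower in *KD2* were *Etv5* and *Myc*, at -1.38 and -1.43, named after their values were seen. The others called higher in *KD1*, also named after their values were seen, were *Ccnd1*, *Phlda1*, *Ptgs2* and *Plaur*. *Ccnd1* was at 1.11 in *KD1* and lower in *KD2*, at -0.18 (adjusted p = 0.0047). *Ptgs2* and *Plaur* were higher in *KD2* too, at 0.43 and 0.20, and *Phlda1* did not differ detectably there (0.20). Set against *KD1*, 8 of the 20 were called lower in *KD2* (beside 8.58% of all genes) and 2 higher (10.0%, beside 14.7%), with a median of -0.70, where all genes had 0.02.

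**Figure D5:**
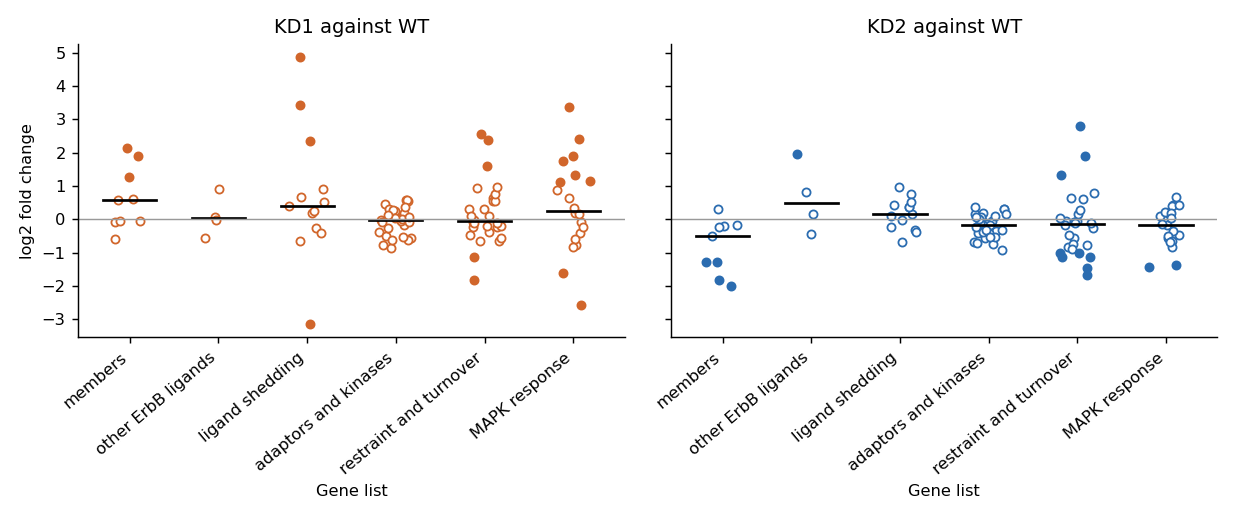
Log2 fold change against *WT* (vertical axis) in *KD1* (left) and *KD2* (right) of the 9 tested members and of 5 lists of other pathway genes (horizontal axis), with 1 point per gene, filled where called, and a bar at the median of each list. The members' median is 0.57 in *KD1* and -0.51 in *KD2*, and the adaptor and kinase list holds no filled point in either line.

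Markers of other cell types were checked for the same cultures. The summed level of 8 fibroblast markers ranged from 17.0 to 23.0 CPM for *WT*, from 8.07 to 10.1 CPM for *KD1* and from 90.1 to 99.9 CPM for *KD2*, where most of it was *Pdgfrb* (66.8 ± 5.02 CPM, SD, n = 3). *Pdgfra* was also highest in *KD2*, with means of 7.96, 8.40 and 16.4 CPM in *WT*, *KD1* and *KD2*, as was *Col1a2* (1.17, 0 and 3.09 CPM). *Col1a1* (7.04, 0.571 and 4.38 CPM) and *Col3a1* (3.03, 0.0131 and 2.72 CPM) were highest in *WT*. *Lum* and *Thy1* were at or under the floor in all 3 lines, as was *Dcn* in *WT* and *KD1*. The immune markers *Ptprc*, *Adgre1* and *Cd3e* were at or under the floor in all lines, and *Cd68*, a macrophage marker that other cells also express, was at 4.10 ± 1.57 CPM in *WT*, 7.56 ± 0.744 in *KD1* and 4.02 ± 0.560 in *KD2* (SD, n = 3). Of 4 adipocyte markers, *Adipoq*, *Plin1* and *Lep* were at or under the floor in all lines, and *Fabp4* was at 0.185 ± 0.0803, 2.57 ± 0.425 and 0.288 ± 0.258 CPM in *WT*, *KD1* and *KD2* (SD, n = 3). The adipocyte sum ranged from 0.147 to 0.256 CPM for *WT*, from 2.12 to 2.94 CPM for *KD1* and from 0.0492 to 0.566 CPM for *KD2*. The sum of 4 endothelial markers, most of it *Pecam1* in *WT* and *KD1*, ranged from 2.05 to 2.49 CPM for *WT*, from 4.87 to 5.51 CPM for *KD1* and from 1.43 to 2.10 CPM for *KD2*. The endothelial markers *Cdh5* and *Tek* were instead highest in *KD2*, at 0.678 and 0.216 CPM. The means of *Cd68* and *Fabp4* and the range of the endothelial sum were thus highest in *KD1*, where 5 ligands were higher. The part of these markers in the ligand values was not tested. *Pdgfrb*, *Pdgfra* and *Col1a2* had their highest means in *KD2*, and their part in the *KD2* values of the receptors and ligands was not tested. All marker levels are descriptions without a test.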

How the data were processed

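RNA was poly-A selected from 9 HC11 cultures and sequenced in pairs, and the authors deposited raw counts of reads per gene. Per the labels and methods, the authors used fastp for trimming, HISAT2 for mapping to GRCm38 and featureCounts for counting over exons. Versions and strandedness are not given in the sources used here. The authors' own comparisons were not used, and 0 columns lacked a culture.

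Counts were tested with edgeR 4.0.16 in R 4.3.3 (TMM scaling, expression filter on the 3 groups, quasi-likelihood test, 1 fit of 9 cultures, no block). Alternatives were DESeq2 1.42.0, other scalings and filters, the 6 cultures compared, a replicate block and each culture left out. The test was tried on simulated data. Positions and lengths came from GENCODE vM21, another release than the authors used, and promoter windows from RefSeq. Members and lists were chosen with earlier results of these data known. Beyond the members, genes were named by rule: per list, up to 4 called the same way in both lines and up to 3 called between the lines, plus a fixed set of feedback and response genes, the 3 profiles nearest to 1 receptor and 1 ligand, and *Vangl2*.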

Additional observations from a re-analysis of the deposited data

Results flagged for a closer look

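The effects of the 2 edited lines against the same *WT* cultures differed for the genes below, by the direct test of *KD2* against *KD1* with edgeR (adjusted p under 0.05 and a log2 difference beyond 1). All differences are log2 values of *KD2* over *KD1*. For each gene, every culture of one line lay on the same side of every culture of the other. That also held for most genes tested, *KD2* lying wholly above *KD1* for 36.7% and wholly below for 35.0%. Among the members, the difference was -1.19 for *Egfr*, -2.62 for *Areg*, -1.22 for *Ereg*, -1.83 for *Hbegf*, -1.44 for *Tgfa* and -3.18 for *Nrg1*. For *Areg* and *Nrg1* the lines also moved to opposite sides of *WT*, while *Ereg* was below *WT* in both.

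Among the other ligands it was 1.37 for *Egf* and 1.04 for *Nrg2*. For the shedding genes it was -2.68 for *Adam8*, -4.10 for *Adam19*, where *KD2* had 2 to 7 counts so that the fitted value is loosely set, and 2.48 for *Timp3*. For the adaptors and kinases it was -1.32 for *Grb7*, -1.17 for *Hras* and 1.00 for *Pik3r1*, and for the genes of restraint and turnover -1.67 for *Cblb*, -1.55 for *Cblc*, -1.52 for *Dusp6* and -1.85 for *Sh3kbp1*. For the response genes it was 2.99 for *Egr2*, -2.30 for *Ier3* and -3.51 for *Lif*. Only members and genes named by rule are given here. The lists held others called between the lines: *Rhbdl2*, *Dusp4*, *Dusp5*, *Egr3*, *Fosl1*, *Etv4*, *Phlda1*, *Ccnd1*, *Ptgs2* and *Plaur*. The differences of *Pik3r1* and *Nrg2* lay within 1 in 11 and 3 of 16 alternative settings, respectively, down to 0.96 and 0.93. Dixon's criterion for a single outlying culture was not applied to groups of 3.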

How the results depend on the processing

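Of the members' log2 fold changes over 16 alternatives and 3 comparisons, 414 kept their direction and their side of the adjusted p threshold, 12 lost it, 4 gained it and 2 turned sign. The 12 were all *Erbb2* in *KD2* against *WT*, and the 4 were *Tgfa* in *KD2* against *WT* and *Erbb2* in *KD2* against *KD1*. Requiring at least 10 counts in every culture, which tests fewer genes, left 766 genes called higher and 553 lower in *KD1*, 1173 and 525 in *KD2*, and 1181 and 733 in *KD2* against *KD1*. Library size alone moved the median of all genes to 0.12 in *KD2* against *WT* and 0.14 in *KD2* against *KD1*, and *Egfr* was then -1.17 in *KD2*.

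With each culture left out in turn, values near 0 turned sign. In *KD1*, *Erbb2* ran from -0.113 to 0.028, *Erbb3* from -0.108 to 0.079, *Spry4* from -0.252 to 0.081, *Mid2* from -0.024 to 0.055 and *Kantr* from -0.064 to 0.017. In *KD2*, *Ier3* ran from -0.039 to 0.229 and *Vangl2* from -0.038 to 0.13. *Mid2* was -0.009 with library size alone, and *Kantr* 0.007 with at least 10 counts and 0.012 with only the 6 cultures compared. The causes were not tested.

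Same-numbered cultures did not deviate together (mean r = 0.00116 across genes, from -0.0652 to 0.0789), and differently numbered ones ranged from -0.101 to 0.107. No pairing by number was thus seen, but with 3 cultures a line this cannot show that there was none. With the replicate number as a block, *Fos* in *KD2* against *KD1* passed the threshold (0.20, adjusted p = 0.0456), *Pik3r1* in the same comparison fell just within the limit of 1 (0.998), and no other call among the named genes changed. Over all 16 alternatives, *Pik3r1*, *Nrg2* and *Bdp1* in *KD2* against *KD1*, *Cblb*, *Cblc* and *Urah* in *KD2*, and *Egr1* in *KD1* fell within that limit in 11, 3, 2, 5, 9, 1 and 1 of them, with their adjusted p still under 0.05. Calls were gained for *Sh3kbp1* in *KD1* in 4 alternatives (1.003 to 1.027) and for *Nrg2* in *KD1* in 3 (1.009 to 1.128). *Egf* in *KD2* gained a call in 1 (1.192). Depth limits *Erbb4* and *Adam19*.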
